A study of Homo sapiens with 2 samples.

Results

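The MCM helicase family is the set of transcript clusters whose gene symbol is MCM followed only by digits, from MCM2 to MCM10. The rule found 9 genes, each with 1 cluster, among 14884 named genes and 53617 clusters. All 9 passed the filter on low signal that left 10887 measured genes. They were followed in the established human line MDA-MB-231, derived from a breast cancer, on 1 array of compound 1 and 1 array of a miR-544 antagomir. Compound 1 is the small molecule that the study directs at miR-544, and the antagomir is an oligonucleotide that blocks this microRNA. Either agent was given 24 hours before hypoxia, and all cells were then kept for 5 days at less than 1% oxygen. Per the design text, 3 samples entered a pool before the array step. Whether this means 3 for each treatment or 3 in all is not stated, and neither untreated nor normoxic cells are part of the comparison. A single array stands for each treatment, so no value has a replicate error or a test, and each difference describes these arrays. Treatment, culture pool and hybridisation cannot be told apart.

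MCM proteins drive the unwinding of DNA during replication. MCM2, MCM3, MCM4, MCM5, MCM6 and MCM7 form a ring-shaped hexamer that is loaded on replication origins in G1 phase by the origin recognition complex with CDC6 and CDT1. In S phase the ring binds CDC45 and the GINS complex and becomes the active replicative helicase. MCM8 and MCM9 form a separate helicase that works in homologous recombination, and MCM10 is a replication initiation factor that shares the name but not the ATPase fold. In proliferating cells the genes of the hexamer are known targets of E2F transcription factors, and their proteins serve as proliferation markers in breast cancer.

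Promoter sequence is shown first because the hexamer genes are classical E2F targets. RefSeq promoters of GRCh38.p14, each from 250 bases before to 50 bases after a gene's start, were given for 7 of the 9 genes; MCM4 and MCM5 were not analysed here. The search used the E2F letters TTTGGCGC, or TTTGCCGC, or TTTCGCGC, or TTTCCCGC, on both strands, and matches on opposite strands can overlap. At least 1 match was present in 5 of the 7 genes (MCM2, MCM3, MCM6, MCM7 and MCM8), and in 3.99% of the 27305 genes of the promoter table. Capitals below mark the matches, and each sequence runs 5′ to 3′ on the gene's strand.
MCM6 at chr2:135876511-135876606, minus strand: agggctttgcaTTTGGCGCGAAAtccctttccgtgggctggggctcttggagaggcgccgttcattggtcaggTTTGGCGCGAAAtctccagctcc
MCM2 at chr3:127598404-127598433, plus strand: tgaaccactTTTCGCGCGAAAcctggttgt
MCM3 at chr6:52284898-52284927, minus strand: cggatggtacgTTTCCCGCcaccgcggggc
MCM3 at chr6:52284728-52284757, minus strand: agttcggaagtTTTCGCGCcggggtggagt
MCM7 at chr7:100101398-100101595, minus strand: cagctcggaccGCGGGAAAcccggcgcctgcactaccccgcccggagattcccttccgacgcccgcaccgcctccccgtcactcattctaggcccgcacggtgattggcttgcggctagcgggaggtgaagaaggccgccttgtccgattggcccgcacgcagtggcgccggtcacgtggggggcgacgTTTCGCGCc
MCM8 at chr20:5950667-5950696, plus strand: ggatcactgaaGCGCCAAAaaagaatttag

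The same block of letters occurs at 2 places of the MCM6 promoter, and each copy holds a match on both strands, which gives 4 matches. MCM2 also holds a match on both strands, in overlapping letters just after its start. MCM3 and MCM7 have 2 matches each, of which 1 in each gene lies across or just before the start. MCM7 has 3 promoters in the table, and the other 2 hold no match. The 1 match of MCM8 lies after its start, on the opposite strand. MCM9 and MCM10 hold none of these letters in their window. A match is a string of letters, and binding of E2F proteins was not measured here.

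Transcripts of the family were lower on the compound 1 array in 8 of 9 genes. The members' median log2 difference, compound 1 minus antagomir, was -0.23, against -0.035 over all 10887 measured genes. Of those genes 57.2% were lower, and of the 9583 protein-coding ones 58.9%. The share was larger at high signal, where most members lie. With entry raised to the 75th percentile of level, 67.1% of 6465 genes were lower, beside 7 of 8 members. At a limit of 0.32 on the log2 scale, 3 of the 9 members were lower (MCM6, MCM4 and MCM9) and 0 were higher. The same limit was passed downward by 5.27% of measured genes (5.02% of protein-coding ones) and upward by 3.56%. In counts, 574 measured genes were lower and 388 higher past that limit, or 780 lower and 307 higher after each array was centred on its median. Quantile normalization gave 457 lower and 426 higher, and cyclic loess 522 lower and 361 higher. In RNA of many cells, fewer cells that carry a transcript and less transcript per cell cannot be told apart.

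**Figure D1:**
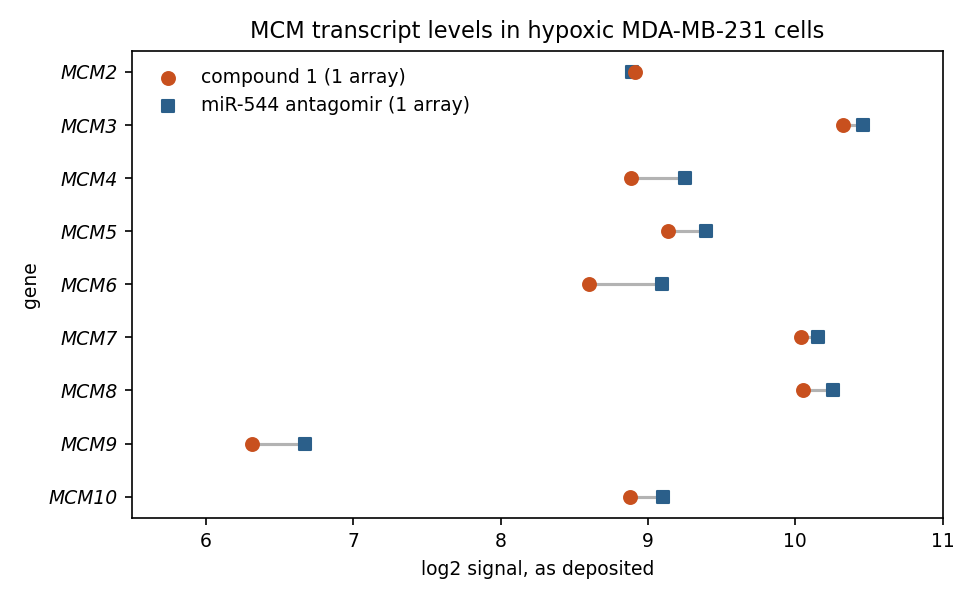
Log2 signal of the 9 MCM genes (horizontal axis) on the compound 1 array (circles) and the miR-544 antagomir array (squares), 1 array each and so without error bars. The compound 1 value lies to the left of the antagomir value in 8 genes, and the pair of MCM2 values nearly coincide.

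Among the hexamer subunits MCM6 differed most. Its log2 level was 8.60 with compound 1 and 9.10 with the antagomir, a difference of -0.50, or 1.41-fold lower. Of all measured genes 0.919% had a lower difference. Because the spread of differences depends on signal, each member was also set beside the genes in its own twentieth of mean level, which holds at most 545 genes. There only 2 genes (0.368%) were lower than MCM6, which lay at -3.25 local robust SDs from the local median. On the scale of whole arrays, MCM6 lay above 89.0% of clusters with compound 1 and above 91.7% with the antagomir.

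MCM4, which with MCM6 and MCM7 can be isolated as a subcomplex that has helicase activity of its own, came next. Its level was 8.88 with compound 1 and 9.25 with the antagomir, a difference of -0.37 (1.29-fold lower), and 7 genes (1.29%) at its level were lower. The third member of that subcomplex had a smaller difference on these arrays, and no replicate gives the error of that gap. MCM7 was at 10.04 with compound 1 and 10.16 with the antagomir, a difference of -0.12, and 39.2% of genes at its level were lower still.

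MCM5, which lies beside MCM2 at the gate through which the ring opens around DNA, was at 9.13 with compound 1 and 9.40 with the antagomir (difference -0.26). At its level 8.81% of genes were lower. MCM2, the subunit that also binds histones at the fork, was the only member not lower as deposited, at 8.91 with compound 1 and 8.89 with the antagomir. Its difference of 0.017 turned to -0.013 after centring, and 74.4% of genes at its level had a lower difference. MCM3 was at 10.33 with compound 1 and 10.46 with the antagomir, a difference of -0.13. Like MCM7, it lay between the 25th and the 75th percentile of the genes at its level.

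**Figure D2:**
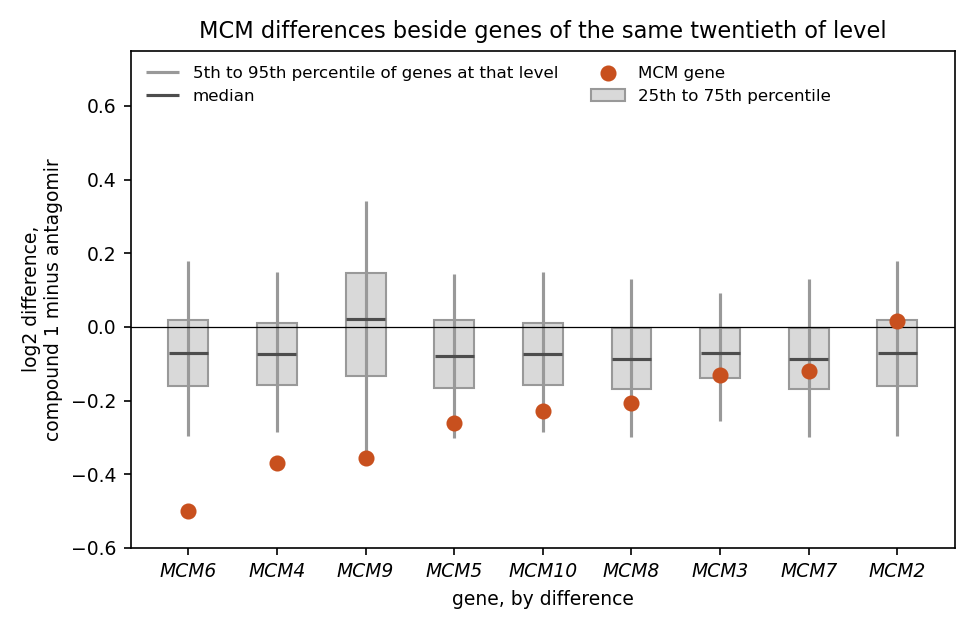
Log2 difference, compound 1 minus antagomir, of each MCM gene (circles) beside the measured genes in the same twentieth of mean level (box, 25th to 75th percentile; line, 5th to 95th percentile; bar, median). MCM6 and MCM4 lie below the 5th percentile and MCM9 close to it, while MCM3, MCM7 and MCM2 lie within the box.

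The differences of the hexamer subunits, whose proteins occur in equal numbers in the ring, spanned 0.52 between MCM6 and MCM2. No replicate gives the error of such a gap. A rough scale comes from other genes that have 2 clusters that reach the 75th percentile of level. In 81 such genes, without pairs of identical values, the differences of the paired clusters lay apart by a median of 0.091, and 10% lay apart by more than 0.37. Of the 15 pairs of hexamer subunits, 14 lay apart by more than that median and 4 by more than the 90th percentile. Those 4 were MCM2 with MCM6, MCM2 with MCM4, MCM6 with MCM7 and MCM3 with MCM6. Over the 298 such genes that reach the 50th percentile, the median gap was 0.15 and the 90th percentile 0.46, which 9 pairs and 1 pair exceeded. Both scales come from clusters of the same gene. How often pairs of other, different genes exceed them was not computed, so these counts do not set the hexamer apart. The pairs are also not independent, since each subunit enters several of them. The closest pair was MCM3 with MCM7, at a gap of 0.012. For the whole family ordered by difference, only 1 of the 8 gaps between neighbours exceeded the local robust SD, that between MCM7 and MCM2 (0.14 against 0.13). This SD is that of single genes, and a gap between 2 genes spreads more. No neighbour is therefore set apart by its gap, and the order of neighbours is not read as a result.

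Outside the hexamer, both subunits of the recombination helicase were lower with compound 1. MCM8 was at 10.05 with compound 1 and 10.26 with the antagomir, a difference of -0.21, and 17.8% of genes at its level were lower. MCM9 was at 6.32 with compound 1 and 6.67 with the antagomir. Its difference of -0.36 (1.28-fold lower) was close to that of MCM4, but genes at its lower signal spread more, with a local robust SD of 0.20 against 0.13 for MCM4. At its level 30 of 545 genes were lower. MCM10, which helps to activate the assembled helicase, was at 8.88 with compound 1 and 9.10 with the antagomir. Its difference was -0.23, and 12.1% of genes at its level were lower. Of the whole family, 8 of 9 genes lay below the median of the genes at their own level, and MCM6 and MCM4 lay below the 5th percentile.

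Scaling of the arrays changed the size of these differences and, apart from MCM2, not their direction. In the highest of the 20 level bins the median difference was -0.071 as deposited, -0.0082 with quantile normalization and 0.00061 with cyclic loess. Under these scalings, in the same order, MCM6 was at -0.42 and -0.43, MCM9 at -0.36 and -0.37, and MCM4 at -0.30 in both, which is short of the limit of 0.32. MCM5 was at -0.20 and -0.19, while MCM3 (-0.056 and -0.058) and MCM7 (-0.046 in both) came close to zero. MCM2 was higher by 0.090 and 0.086. The family median was -0.15 after quantile normalization and -0.16 after cyclic loess, against 0.0048 and -0.0046 over all measured genes.

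**Figure D3:**
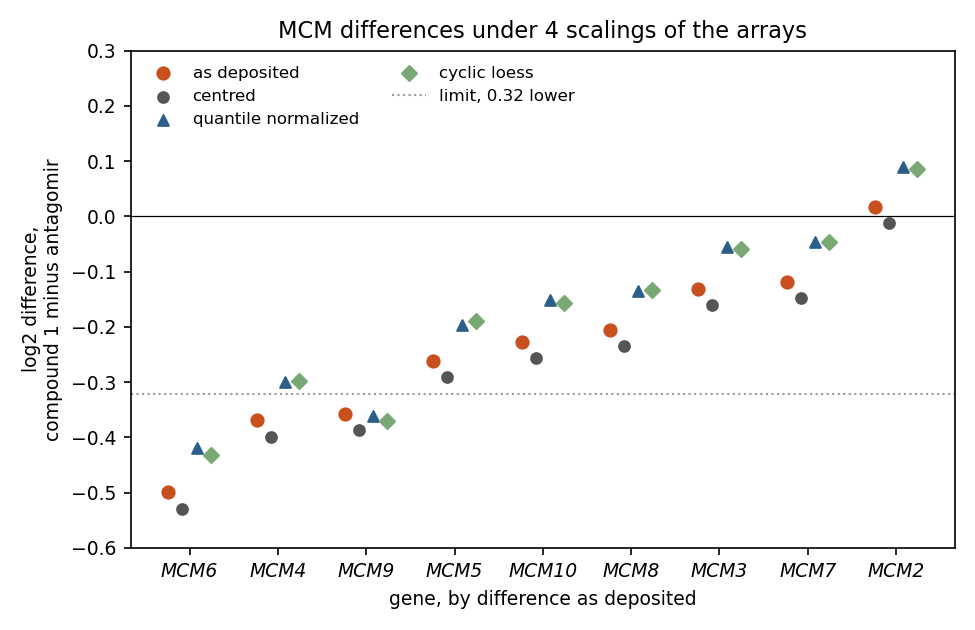
Log2 difference, compound 1 minus antagomir, of each MCM gene as deposited and under 3 scalings (centring, quantile normalization, cyclic loess), with a dotted line at the limit of 0.32 lower. MCM6 and MCM9 lie below the dotted line under all 4, MCM4 lies below it as deposited and after centring only, and MCM2 changes sign with centring.

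The promoter matches can be set beside the differences for the 7 genes with a window, without MCM4 and MCM5. Matches of MCM6 and MCM2 overlap on opposite strands, so a number of matches is not a number of separate sites. MCM6, with 4 matches, had the lowest difference (-0.50) and MCM2, with 2 matches, the highest (0.017). MCM3 and MCM7, with 2 matches each, were at -0.13 and -0.12, and MCM8, with 1 match, at -0.21. MCM9 and MCM10, with no match in the window, had differences of -0.36 and -0.23. These 7 genes are described and not tested.

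Genes that act with the MCM ring were followed in lists chosen by function. Of 14 genes that turn the loaded ring into an active helicase, 13 were measured, and all 13 were lower with compound 1 (11 after quantile normalization or cyclic loess, where RECQL4 and DONSON turned), with a median of -0.17. Of all measured genes, 57.2% were lower as deposited, 48.9% after quantile normalization and 51.1% after cyclic loess. All 13 also pass entry at the 75th percentile of level, where 67.1% of genes were lower as deposited. DBF4, the activating subunit of the CDC7 kinase that phosphorylates MCM2, MCM4 and MCM6, was at 7.33 with compound 1 and 7.76 with the antagomir. This difference of -0.44 was the only one of the 13 past the limit of 0.32 (4 were past it after centring). That is 7.69% of the list as deposited, near the 5.27% of all measured genes that were lower past it, and 30.8% against 7.17% after centring. The GINS subunit GINS4 (-0.31) and the polymerase-linking fork factor WDHD1 (-0.30) followed, and at the upper end were the helicase RECQL4 (-0.013) and the fork protector DONSON (-0.061).

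Of the factors that load the ring at origins, 2 of 9 listed genes were measured, and the others were not analysed here. CDC6, the ATPase that recruits CDT1 and the ring to origins, was at 9.31 with compound 1 and 9.33 with the antagomir. CDT1, which carries the ring to CDC6, was at 8.40 with compound 1 and 8.30 with the antagomir. Their differences of -0.019 and 0.095 became 0.047 and 0.16 after quantile normalization.

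**Figure D4:**
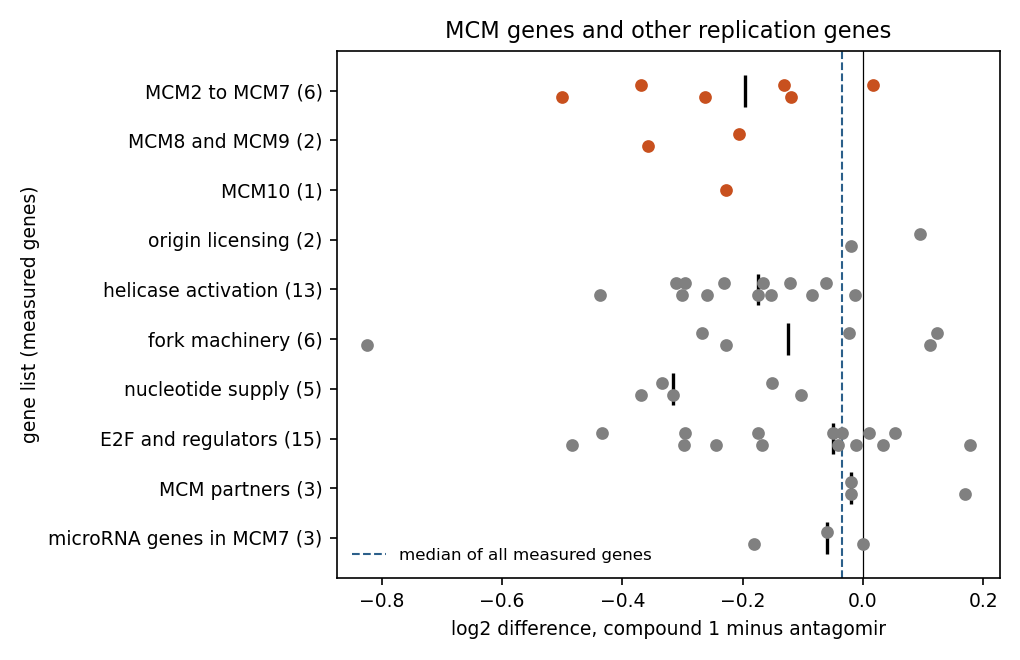
Log2 difference, compound 1 minus antagomir, of each measured gene, by gene list, with the number of genes in brackets; coloured points are MCM genes, short bars are medians of lists with 3 or more genes, and the dashed line is the median of all measured genes (-0.035). All 13 helicase activation genes and all 5 nucleotide supply genes lie left of zero, while the E2F list spreads to both sides.

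Nucleotide supply genes were the list with the lowest median, at -0.32 over 5 measured genes of 7, all of them lower. The thymidylate synthase gene TYMS was at -0.37, the thymidylate kinase gene DTYMK at -0.33, and the ribonucleotide reductase subunits RRM2 and RRM1 at -0.32 and -0.15. The dUTPase gene DUT was at -0.10, with signal near the entry level. TYMS and DTYMK passed the limit of 0.32 as deposited, 3 genes passed it after centring, and 0 genes of the list passed it after quantile normalization. The shares of all measured genes lower past it were 5.27%, 7.17% and 4.2% in the same order. For the replication fork 6 of 27 listed genes were measured and 4 were lower, with a median of -0.13 (3 lower after quantile normalization). These shares of 66.7% and 50% lie near the 57.2% and 48.9% of all measured genes. PCNA, the sliding clamp, was at -0.23 and the nuclease-helicase DNA2 at -0.27, while CLSPN and FEN1 were higher by 0.12 and 0.11. TIPIN, a partner of TIMELESS at the fork, was at 6.30 with compound 1 and 7.12 with the antagomir (a difference of -0.82, below that of every MCM gene).

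Transcription factors of the E2F family and their regulators had a median close to that of all measured genes. Of 18 listed genes 15 were measured and 11 were lower (73.3%, against 57.2% of all measured genes), with a median of -0.049. After quantile normalization 7 were lower (46.7%, near the 48.9% of all measured genes) and the median was 0.018. Of the 15 genes, 13 also pass entry at the 75th percentile of level, where 67.1% of genes were lower as deposited. E2F1, an activator of MCM genes, was at 9.72 with compound 1 and 9.67 with the antagomir, a difference of 0.053. E2F8, a repressor of the same family, was at 9.15 with compound 1 and 9.64 with the antagomir (-0.48). The pocket protein gene RBL2 was at -0.43 and LIN9, of the MuvB complex, at -0.30, while LIN37 of the same complex was higher by 0.18. Only E2F8 and RBL2 were lower past the fold limit as deposited. They make up 13.3% of the measured list, against 5.27% of all measured genes that were lower past it. The shares were 26.7% against 7.17% after centring, and 13.3% against 4.2% after quantile normalization.

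Of the genes whose proteins bind MCM subunits, 3 of 5 were measured. MCMBP, whose protein binds MCM3 to MCM7 in complexes without MCM2, was at -0.019. MCM3AP, whose protein acetylates MCM3, was at -0.020, and both turned positive after quantile normalization (0.060 and 0.028). HROB, whose protein recruits MCM8 and MCM9 to sites of recombination, was at 7.85 with compound 1 and 7.68 with the antagomir, higher by 0.17 where MCM8 and MCM9 were lower, and 90.8% of genes at its level had a lower difference. MCMDC2, a meiotic relative, did not reach the entry level, at 4.44 with compound 1 and 3.90 with the antagomir.

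The MCM7 gene also holds 3 microRNA genes, MIR106B, MIR93 and MIR25, which the array measures through clusters of their own. Their mature forms from RefSeq, GRCh38.p14, are shown because miR-106b-5p and miR-93-5p share a seed (bases 2 to 8, in capitals) and miR-25-3p has another.
miR-106b-5p at chr7:100094043-100094063, minus strand: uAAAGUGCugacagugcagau
miR-93-5p at chr7:100093815-100093837, minus strand: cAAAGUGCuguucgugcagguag
miR-25-3p at chr7:100093571-100093592, minus strand: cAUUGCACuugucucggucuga

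The clusters of these microRNA genes cannot separate the precursor from the unspliced MCM7 transcript that contains it. MIR106B was at 7.25 with compound 1 and 7.31 with the antagomir, a difference of -0.060. MIR93 was at 5.80 with compound 1 and 5.98 with the antagomir (-0.18). MIR25 was at 7.08 on both arrays, with a difference of 0.00057. The host gene MCM7 (-0.12) lay between MIR93 and MIR106B.

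The arrays were close in range and median, but the difference between them changed with level. The deposited values ran from 0.37 to 14.20 on the compound 1 array and from 0.61 to 14.19 on the antagomir array, with medians of 5.62 with compound 1 and 5.59 with the antagomir. Among the 20 level bins, the median difference was 0.097 in bin 1, 0 in bin 7 and -0.088 in bin 19. Every MCM gene except MCM9 lay in bins 16 to 20. Markers of mesenchymal-like breast cancer cells were measured for 5 of 6 listed genes, with levels of 9.04 to 12.77 on the compound 1 array and 9.08 to 12.78 on the antagomir array (VIM, CD44, AXL, FOSL1 and ANXA1). The hormone receptor genes ESR1 (5.21 with compound 1 and 5.31 with the antagomir) and PGR (4.77 on both) were under the entry level, whereas 3 luminal genes were measured. KRT19 was at 8.78 with compound 1 and 9.04 with the antagomir, GATA3 at 7.44 with compound 1 and 7.27 with the antagomir, and EPCAM at 7.05 with compound 1 and 6.91 with the antagomir. Among genes of other cell types, CD14 for leukocytes and DCN for fibroblasts did not reach the entry level on either array. Of the endothelial genes, PECAM1 did not reach it, VWF was just above it (5.81 with compound 1 and 5.74 with the antagomir), and KDR was at 7.03 with compound 1 and 6.92 with the antagomir. Their part in the MCM differences was not tested.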

How the data were processed

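The deposited table holds the authors' processed log2 values, 1 per transcript cluster and array, of biotin-labelled cRNA made from 5 µg of total RNA, per the labels' protocols. The log base is inferred from the range, so each fold assumes base 2. Sources used here do not give the background correction or the normalization. GEO's platform annotation named 16098 clusters, with 0 holding several symbols. No further scaling was applied. A cluster entered when its higher array reached the 50th percentile of mean level (5.60), and a gene was its entering cluster of highest mean. Members were set beside all measured genes and beside genes in the same of 20 level bins; robust SD is the scaled median absolute deviation. The members, lists, named genes (in each list the lowest 3 and highest 2) and fold limit were chosen with earlier results of these data known. Scripts were tested on simulated data. Python 3.11.15, numpy 2.4.6, pandas 2.3.3, matplotlib 3.10.9, R 4.3.3 and limma 3.58.1 were used. The number of arrays limits the precision.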

Additional observations from a re-analysis of the deposited data

How the results depend on the processing

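The family median (-0.23) was -0.15 with quantile normalization and -0.16 with cyclic loess, and between -0.26 and -0.20 in the other alternatives run, which were centring, 3 other filters, another cluster choice, and leaving out MCM6, MCM4 or all genes outside the hexamer. The hexamer median (-0.20) was -0.13 and -0.12 after the same scalings. MCM2 turned to -0.013 after centring. The number of members lower past the fold limit was 3, and became 6 at 1.1-fold and 0 at 1.5-fold, where 27.2% and 0.551% of measured genes passed. At 1.2-fold it was 3, beside 9.48% of measured genes. Filters and cluster choice cannot move a member that has 1 cluster; entry at the 75th percentile removed MCM9. The E2F letters were found in 3 of 7 genes when only bases before the start were searched (3.4% of all genes in the promoter table), and in 4 of 7 with the shorter cores TTGGCGC and TTCCCGC (11% of all genes). No paired analysis was possible because neither agent has a second array.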

Other observations

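The E-box letters CACGTG, the core bound by MYC and other basic helix-loop-helix factors, were searched after the promoter sequences had been seen. They were present in 3 of the 7 MCM genes of the promoter table, MCM2, MCM7 and MCM8, and in 8.77% of its 27305 genes. The differences of these 3 genes, compound 1 minus antagomir, were 0.017, -0.12 and -0.21. MCM3, MCM6, MCM9 and MCM10, whose windows do not hold these letters, were at -0.13, -0.50, -0.36 and -0.23. No test was made over these 7 genes.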
